A study of Mus musculus with 2 samples.

Results

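Upper wound fibroblasts are collagen-making cells of the healing skin that carry transcripts of Crabp1, a retinoic acid-binding protein, Prss35, a secreted protease-like protein, or Grem1, a secreted antagonist of BMP ligands. They were taken from 2 single-cell RNA libraries of mouse wound tissue by counting unique molecular identifiers (UMIs, one tag per captured transcript). A cell was a member when it passed a quality filter (a minimum of 500 UMIs and of 300 genes, and no more than 15% of UMIs from mitochondrial genes) and had at least 20 UMIs of Col1a1 and Col1a2 together, at least 2 of Pdgfra and Lum together, no UMI of Ptprc (the pan-leukocyte CD45 gene) and under 5 of Rgs5 (a pericyte gene). Its Crabp1, Prss35 and Grem1 UMIs together had to reach 3 and to exceed the sum of Clec3b, Angptl1, Cilp and Tnmd, genes of the deeper dermis and fascia. The rule found 1687 members among 24649 filtered cells, 297 of them in the library WT_LW and 1390 in the library TLR9agonist_LW.

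Both libraries came from male C57BL/6J mice aged 6 to 8 weeks with a large full-thickness wound, 1.8 cm across, on the back. WT_LW received PBS according to the sample labels and the methods, whereas a figure legend of the study names a control oligonucleotide. TLR9agonist_LW received 4 μg at a time of ODN2395, a CpG oligodeoxynucleotide that activates Toll-like receptor 9 (TLR9), an endosomal sensor of unmethylated DNA, on days 0, 3 and 6. In both groups tissue 5 mm across was taken from the wound centre 2 days after the scab came off, epidermis and dermis were dissociated separately and recombined, and each group's mice (their number differs between sections of the study) are represented by 1 library in which cells cannot be traced to a mouse. There was 1 library per group, so no test between the groups was possible. Every interval below covers counting error only, and differences between pools of mice or between preparations cannot be told apart from the treatment.

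Fibroblasts just beneath the epidermis, called papillary, differ in origin and in gene use from those deeper in the dermis and around the fascia. The dermal papilla, the signalling centre at the base of each hair follicle, is formed by cells of the first kind. In large wounds that regrow hair follicles, fibroblasts of the upper wound respond to Wnt ligands from the epidermis and can gather into new dermal condensates. BMP antagonists, R-spondins and retinoid-handling proteins are among the signals that act at this border. These statements are background and were not measured here.

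Members made up 2.60% of the filtered cells of WT_LW (297 of 11443, exact Clopper-Pearson 95% interval 2.31 to 2.90) and 10.5% of those of TLR9agonist_LW (1390 of 13206, 10.0 to 11.1), a log2 ratio of 2.02 (1.84 to 2.20). Among the cells that passed the collagen, Pdgfra, Lum, Ptprc and Rgs5 steps, members were 37.1% in WT_LW (297 of 801, 33.7 to 40.5) and 54.0% in TLR9agonist_LW (1390 of 2574, 52.1 to 55.9), a log2 ratio of 0.54 (0.40 to 0.68). The fibroblasts with the mirrored rule, at least 3 UMIs of the 4 deep genes and more of these than of the 3 upper genes, were 39.0% of fibroblasts in WT_LW (312 cells) and 31.5% in TLR9agonist_LW (811 cells). The upper gate therefore held the larger number of fibroblasts in TLR9agonist_LW, whereas in WT_LW the intervals of the upper and the deep shares overlapped. The remaining 192 and 373 fibroblasts fell in neither gate.

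**Figure D1:**
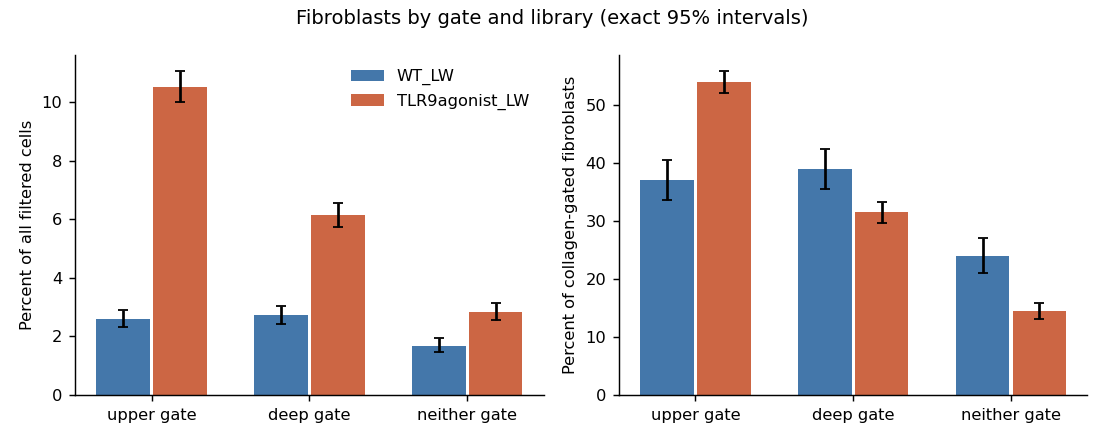
Share of fibroblasts in the upper gate, the deep gate and neither gate, as a percent of all filtered cells (left) and of collagen-gated fibroblasts (right), for WT_LW (blue) and TLR9agonist_LW (orange). Bars start at 0 and whiskers are exact 95% binomial intervals of cell counts. The upper gate is at 2.60% and 10.5% of cells and at 37.1% and 54.0% of fibroblasts.

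The members held 5145970 UMIs in WT_LW and 18297541 in TLR9agonist_LW, with a median of 16598 and 12191.5 per cell and a median mitochondrial share of 2.88% and 2.20%. Doublet scores named 20 members of WT_LW (6.73%) and 124 of TLR9agonist_LW (8.92%) as likely doublets, which were kept. No cell barcode occurred in the members of both libraries, against 39 over all filtered cells. Transcripts of 12 keratinocyte genes exceeded 1% of the UMIs in 5 members of WT_LW (1.68%) and in 69 of TLR9agonist_LW (4.96%). Their summed level in members was 1310 CPM (counts of a gene per 1000000 UMIs of the class) in WT_LW, against 5255 CPM in the treated library. In leukocytes (at least 2 Ptprc UMIs) the same sum went from 632 to 3557 CPM and in endothelial cells (at least 3 UMIs of Pecam1 and Cdh5) from 470 to 2210 CPM, so a higher keratinocyte signal was present in every class examined. Macrophage and dendritic cell genes summed to 508 and 480.3 CPM in members against 25294 and 19500.0 in leukocytes, and pericyte genes to 9.72 and 14.8 CPM. T cell genes summed to 75.01 and 120.4 CPM in members, with 2 of 4 measured genes at least 2-fold higher in TLR9agonist_LW, and mast cell genes to 32.1 and 85.6 CPM, with 3 of 3 higher. Their part in the gene differences below was not tested except where a value is given.

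The members were chosen by the collagen, Pdgfra, Lum, Ptprc and Rgs5 counts and by the 3 upper and 4 deep genes, whose values are descriptions. The median upper sum was 29 UMIs per member in WT_LW and 24 in TLR9agonist_LW, and the highest were 289 and 191. The deep sum had a median of 3 and 1 UMIs and was 0 in 75 members of WT_LW (25.3%) and 558 of TLR9agonist_LW (40.1%). Just inside the rule, 17 and 46 members had an upper sum of 3, and just outside it 24 and 59 fibroblasts had an upper sum of 2. All 3 upper genes were detected in 188 members of WT_LW (63.3%) and 841 of TLR9agonist_LW (60.5%). Crabp1 stood at 851 and 1003 CPM in members of WT_LW and TLR9agonist_LW, Prss35 at 956 and 870.1 CPM, and Grem1 at 486 and 416 CPM. Each was under 21 CPM in leukocytes, endothelial cells and keratinocytes of both libraries. In the deep gate Clec3b, a plasminogen-binding lectin, was 596 CPM in WT_LW and 208 CPM in TLR9agonist_LW, so a gene of the rule itself differed between the libraries outside the members.

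The label names 2 further markers that the rule did not use. Tnn, the matrix glycoprotein tenascin N, was at 597 CPM in members of WT_LW and 163 CPM in members of TLR9agonist_LW, against 70.7 and 35.4 CPM in the deep gate and under 5 CPM in the other classes. Prdm1, a transcriptional repressor used as a papillary lineage marker, was at 33.6 and 68.5 CPM in members and 11.8 and 35.6 CPM in the deep gate. Both markers were thus higher in the upper than in the deep gate of each library, which is a description, since the gates were cut from the same cells. Prdm1 alone does not set members apart, because endothelial cells held 69.4 and 246 CPM. Between the libraries the markers differed in opposite directions. Tnn was lower in TLR9agonist_LW and Prdm1 higher.

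**Figure D2:**
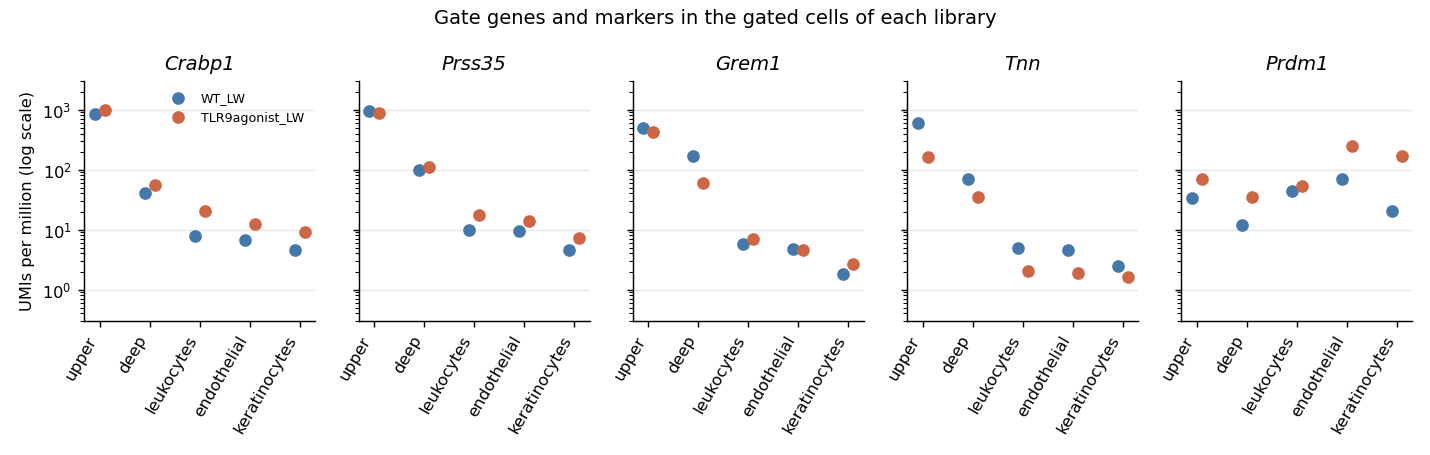
Level of the 3 upper gate genes and of Tnn and Prdm1 in CPM (log axis) in upper and deep gated fibroblasts, leukocytes, endothelial cells and keratinocytes, with 1 point per library (blue WT_LW, orange TLR9agonist_LW). Tnn is at 597 and 163 CPM in members, and Prdm1 is highest in endothelial cells.

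Members also stood apart from deep fibroblasts in genes that the rule did not name. Over genes with at least 200 UMIs in the 4 groups together, 115 of 9869 genes were at least 2-fold higher in the upper gate in both libraries (1.17%) and 164 at least 2-fold lower (1.66%), as a description of gates cut from the same cells. The genes with the highest ratios included Col25a1, a membrane collagen, at 59.3 and 54.3 CPM in members of WT_LW and TLR9agonist_LW against 4.61 and 8.23 CPM in the deep gate. Mmp11, stromelysin 3, was at 152 CPM in members of each library against 21.1 and 31.0 CPM. Itga4, an integrin subunit, was at 24.7 and 24.1 CPM against 2.46 and 3.38 CPM. Rspo4, an R-spondin that enhances Wnt signalling, was at 7.77 and 21.3 CPM against 0.769 and 3.45 CPM. The other genes of this kind were Fam19a1, F13a1, Ccdc42, Htr1b, Ndnf, Nebl, Ccl12 and Cst6. Of these, Cst6 rested in WT_LW on 1 member that held 665 of its 746 UMIs.

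Other genes were lower in the upper gate. Mgp, the matrix Gla protein, was at 22.5 and 44.8 CPM in members against 402 and 461 CPM in the deep gate, and Nov, a matricellular protein, at 121 and 135 CPM against 1024 and 1218 CPM. Cygb, Sfrp4, Pi16, Scara5, Lbp, Spon2, Fmod, Igf2, Col6a6 and Bmper were lower as well. Of the 16 measured genes on a list of papillary markers, 6 were at least 2-fold higher in the upper gate of both libraries (Apcdd1, Axin2, Ptk7, Tbx3, Tnn and Trps1) and 0 lower. Of 19 genes on a list of deep and reticular markers, 0 were higher and 12 lower, with Tnxb, Igfbp6, Cd34, Ly6a and Dlk1 among them. On the retinoid list Cyp26b1, which breaks down retinoic acid, and Rbp4, a retinol carrier, were higher and Aldh1a1, which makes retinoic acid, was lower. Col7a1, the anchoring fibril collagen of the dermal-epidermal junction, was the only gene of the 22 measured on the collagen list that was higher, with 792 and 254 CPM in members against 140.4 and 84.8 CPM, while 6 of the 22 were lower.

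Members differed among themselves by which of the 3 genes led. Prss35 had the most UMIs in 147 members of WT_LW (49.5%) and 545 of TLR9agonist_LW (39.2%), Crabp1 in 89 (30.0%) and 571 (41.1%), and Grem1 in 42 (14.1%) and 198 (14.2%). Members led by each gene were set against members led by the other 2 genes, and 4 of 7980 genes were at least 2-fold higher in both libraries in Crabp1-led members than in members led by another gene (0.0501%) and 3 in Prss35-led members (0.0376%), against 50 in Grem1-led members (0.627%). Lower in both libraries were 16 (0.201%), 21 (0.263%) and 26 genes (0.326%) in the same order. The Grem1-led group of WT_LW was the smallest, with 42 cells. Its ratios carry more counting error, so the counts of the 3 groups are not directly comparable. The Crabp1-led cells held more F13a1, a transglutaminase subunit, with 7.86 CPM against 2.69 CPM in WT_LW and 43.5 against 10.5 CPM in TLR9agonist_LW. Rspo1 was at 24.9 against 6.58 CPM and 14.6 against 6.53 CPM in the same cells, and Cxcl14 and Bmp3 were the others of the 4. Tspan17 came next, at 41.9 against 22.1 CPM and 32.8 against 15.1 CPM. The 3 genes of the Prss35-led cells were Selp, an adhesion receptor, Pcdh9, a protocadherin, and Tet1, a DNA demethylase. Selp was at 15.02 against 6.84 CPM in WT_LW and 47.2 against 22.4 CPM in TLR9agonist_LW. However, 1 member of WT_LW, a predicted doublet, held 31 of its 54 UMIs there, so the WT_LW value rests largely on 1 cell. Just under the fold stood Lgr5, the R-spondin receptor, with 28.5 against 9.41 CPM in WT_LW and 99.3 against 49.2 CPM in TLR9agonist_LW. Penk, the enkephalin precursor, was at 35.2 against 9.41 CPM and 140.2 against 69.9 CPM.

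Grem1-led members held more of several inflammatory and matrix genes. C3, the central complement component, was at 55.4 against 6.16 CPM in WT_LW and 84.6 against 10.2 CPM in TLR9agonist_LW. Cxcl5, a neutrophil-attracting chemokine, was at 112 against 22.2 CPM and 561 against 98.7 CPM. Thbs4, a thrombospondin of tendon and fascia, was at 152 against 30.1 CPM and 38.2 against 7.12 CPM. Klk7, a kallikrein protease, and Ifi205, an interferon-inducible gene, completed the 5 highest. Of the C3 and Cxcl5 UMIs of all WT_LW members, 1 predicted doublet held 46.2% and 61.0%. That cell had no single leading gene, so the values above leave it out. Another member held 16 of the 27 Klk7 UMIs of WT_LW, so the WT_LW value of Klk7 rests largely on 1 cell. Tnn differed less between leading genes than between libraries. In WT_LW it was at 571, 666 and 479 CPM in cells led by Crabp1, Prss35 and Grem1, and in TLR9agonist_LW at 155, 182 and 142 CPM, so each class of TLR9agonist_LW stood below every class of WT_LW.

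**Figure D3:**
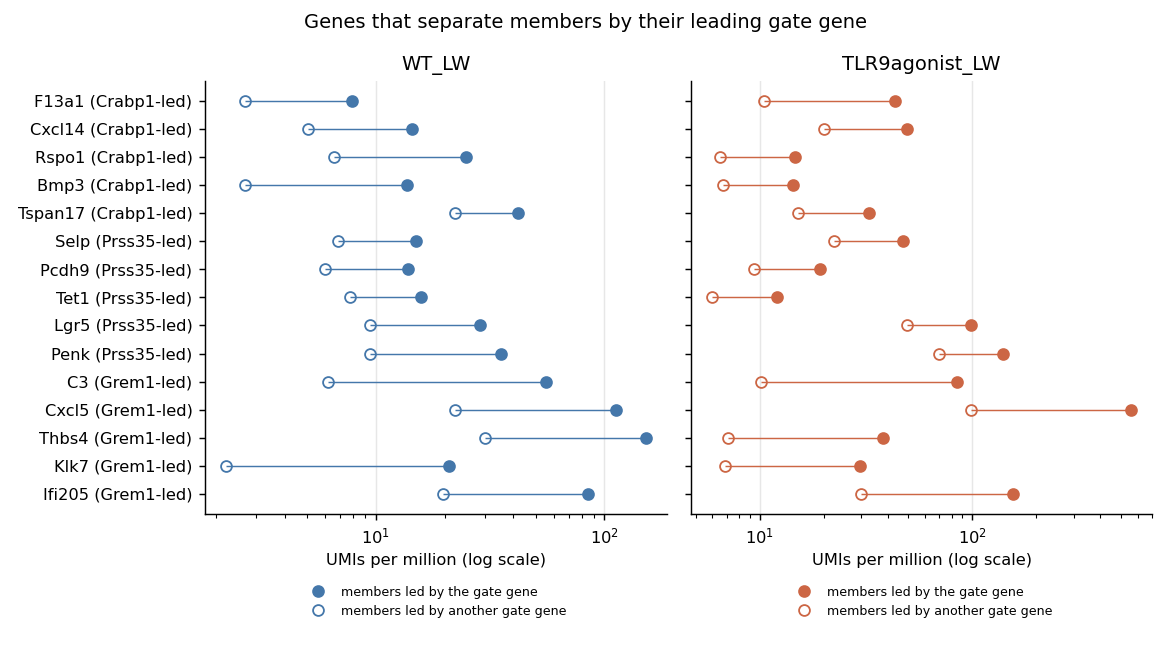
Level in CPM (log axis) of the 5 genes with the highest ratio for each leading gate gene, in members led by that gene (filled) and in members led by another gate gene (open), for WT_LW (left) and TLR9agonist_LW (right). The genes were chosen for these differences. In Grem1-led cells C3 is at 84.6 against 10.2 CPM in TLR9agonist_LW.

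Within the gate the 2 libraries were compared gene by gene as a ratio of summed CPM. The median of 8159 genes with at least 200 UMIs had a log2 ratio of −0.25, and ratios below are relative to this median gene, so that 0 means the change of the median gene. At least 2-fold higher in TLR9agonist_LW were 402 genes (4.93%), and at least 2-fold lower 101 (1.24%). The counts for members on each gene list below stand beside these 2 shares. Without the shift to the median gene the split was 273 higher and 259 lower. In the deep gate, 522 of 7730 genes (6.75%) were higher and 154 (1.99%) lower. Many of the largest ratios in members belonged to genes of other cells. S100a8, a calprotectin subunit of keratinocytes and neutrophils, was at 16.3 and 887 CPM in members (log2 ratio 6.02, 5.71 to 6.34), but also at 11.4 and 779 CPM in the deep gate and 73.4 and 787 CPM in leukocytes, and keratinocytes reached 7482 CPM. Sprr1a, Sprr1b, Stfa1, Csta1, Serpinb2 and 2610528A11Rik were likewise higher in keratinocytes than in members of each library. Areg, an EGF receptor ligand, was at 5.63 and 85.1 CPM in members against 161 and 1389 CPM in leukocytes. Where a gene is described below as above the other classes, its level was at least 2-fold that of leukocytes, endothelial cells and keratinocytes. Only the library where the gene was higher was used for this, and deep fibroblasts are not among these classes. The label was added after seeing the data. It describes the gene's level and is no evidence for a difference between the libraries. Among the 12 lowest of all genes, Tppp3, which binds tubulin, was at 105 and 11.2 CPM (−2.97), Anxa3, an annexin, at 54.4 and 9.40 CPM (−2.28) and Barx2, a homeobox factor, at 42.6 and 5.90 CPM (−2.60). Hmmr, Cenpe, Pla2g7 and Gm26870 were also among them.

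**Figure D4:**
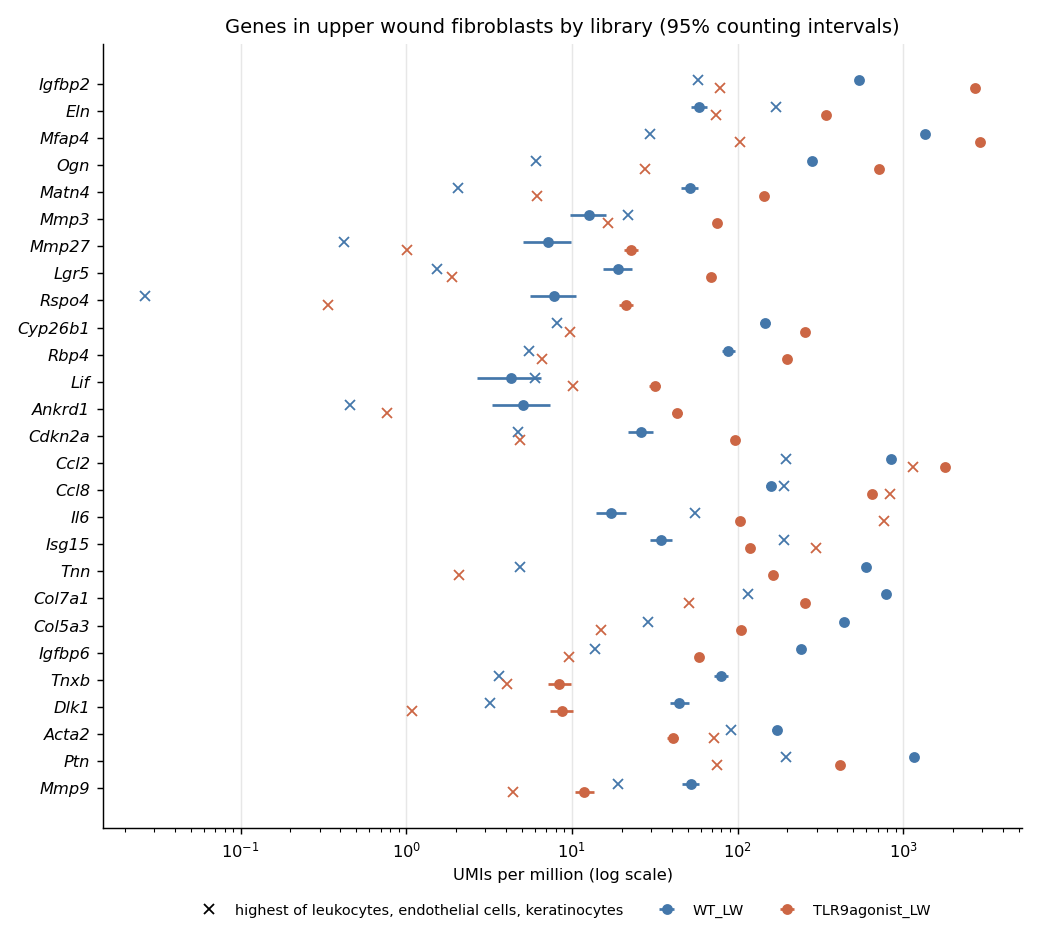
Level of 27 genes in members, in CPM (log axis), for WT_LW (blue) and TLR9agonist_LW (orange); whiskers are exact 95% Poisson intervals of counts, and crosses mark the highest level among leukocytes, endothelial cells and keratinocytes of the same library. Igfbp2 is at 539 and 2711 CPM and Tnn at 597 and 163 CPM, both far to the right of their crosses, whereas the crosses of Il6 and Isg15 lie to the right of their points.

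Several matrix genes with large ratios were well above the other cell classes. Eln, elastin, had 58.7 CPM in WT_LW against 343 CPM in TLR9agonist_LW (log2 ratio 2.80, 2.63 to 2.97), and the share of members with an Eln UMI after thinning each cell to 5000 UMIs was 13.6% and 23.6%. Endothelial cells held 170.1 and 74.5 CPM. Among members, Grem1-led cells held most, with 158 and 804 CPM. With all cells thinned to 5000 UMIs and the rule then applied anew (308 and 1278 members), its log2 ratio was 1.45 (1.24 to 1.67). Every log2 ratio given below after thinning was obtained in this way, so the gated cells changed as well as the depth. Mfap4 was at 1354 and 2910 CPM (log2 ratio 1.36), Fbln5 at 410.2 and 693 CPM (1.01, past the fold in 6 of 11 alternatives), Ogn, a small proteoglycan, at 279.6 and 713 CPM (1.60), Matn4 at 51.5 and 145 CPM (1.75) and Omd at 55.97 and 115 CPM (1.29). On the list of 41 measured matrix glycoproteins and proteoglycans these were the 6 genes past 2-fold higher, while 3 were past it lower, and the list median was 0.13 against 0 over all genes. The 3 lower genes were Thbs3 (48.8 and 13.8 CPM), Emilin2 (72.3 and 12.4 CPM), which leukocytes held at 77.8 and 71.2 CPM, and Nid2 (106 and 42.0 CPM), which endothelial cells held at 100.4 and 87.2 CPM. Fbn1, a fibrillin of elastic fibres, was at 819 and 392 CPM, a log2 ratio of −0.81.

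Of 19 measured collagen genes 0 were at least 2-fold higher and 4 lower, and the list median was −0.60. Col7a1 had 792 CPM in WT_LW against 254 CPM in TLR9agonist_LW (log2 ratio −1.39, −1.45 to −1.33), with 84.4% and 55.8% of thinned members positive. Col5a3 was at 442 and 105 CPM (−1.82), Col11a1 at 31.1 and 8.14 CPM (−1.68) and Col18a1, a basement membrane collagen that endothelial cells hold at higher levels, at 155 and 49.95 CPM (−1.38). The main fibrillar chains stayed within 2-fold. Col1a1 was at 24540 and 27774 CPM, Col1a2 at 23803 and 25218 CPM and Col3a1 at 25863 and 23200 CPM, with log2 ratios of 0.43, 0.34 and 0.10. Col1a1 and Col1a2 were used by the rule.

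Matrix-degrading enzymes differed in both directions. Of 26 measured metalloproteinases and inhibitors, 6 were at least 2-fold higher and 1 lower, and the list median was 0.18. Mmp3, stromelysin 1, had 12.6 CPM in WT_LW against 75.2 CPM in TLR9agonist_LW (log2 ratio 2.83, 2.47 to 3.21), and Mmp27 was at 7.19 and 22.7 CPM (1.91). Mmp13, a collagenase, was at 8.94 and 41.1 CPM (2.45), below keratinocytes at 80.6 CPM in TLR9agonist_LW. Timp3, an inhibitor bound to matrix, was at 162 and 365 CPM, also below endothelial cells. Mmp9, gelatinase B, was the lower gene, at 52.3 and 11.9 CPM (−1.88), with 17.9% and 2.17% of thinned members positive and at most 19.1 CPM in the other classes. Mmp14, a membrane-bound collagenase, and Mmp2, gelatinase A, were at 1091 and 854 CPM and at 621 and 603 CPM.

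Igfbp2, an insulin-like growth factor-binding protein, stood out among abundant genes. It had 539 CPM in WT_LW against 2711 CPM in TLR9agonist_LW (log2 ratio 2.58, 2.53 to 2.64), and 36.6% and 88.1% of thinned members held a UMI. The deep gate was at 254 and 1615 CPM, and the other classes reached at most 78.0 CPM. Igfbp4 was lower, at 310 and 112 CPM (−1.22), as was Igfbp6, at 242 and 58.5 CPM (−1.80), while Igfbp5 was at 1071 and 1145 CPM (0.35). Of 21 measured growth factors and receptors 3 were higher and 2 lower, the higher genes being Igfbp2, Areg and the EGF family ligand Ereg, at 24.1 and 53.8 CPM. Lif, a cytokine of the interleukin 6 family, was at 4.28 and 31.5 CPM (3.14, 2.52 to 3.82), and Gdnf, a neurotrophic factor, at 7.38 and 20.4 CPM (1.72).

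Promoter windows of Mmp3, Igfbp2 and Lif carry the letters TGANTCA, the binding motif of AP-1 (Fos and Jun proteins), which reads the same on both strands. They are shown because they carry the motif. Of the 25 genes with the highest ratios among those above the other classes, 17 have a window, and these 3 genes were the ones with a match. The sequences are RefSeq windows of GRCm38.p6, 250 bases before to 50 after a gene start, in lower case with the motif in capitals. The Mmp3 window is chr9:7445572-7445871 (plus strand) with the motif 46 bases before the start, 1 of the Igfbp2 windows is chr1:72825137-72825436 (plus strand, at 39 bases), the other having no match, and the Lif window is chr11:4257318-4257617 (plus strand, at 228 bases).
Mmp3: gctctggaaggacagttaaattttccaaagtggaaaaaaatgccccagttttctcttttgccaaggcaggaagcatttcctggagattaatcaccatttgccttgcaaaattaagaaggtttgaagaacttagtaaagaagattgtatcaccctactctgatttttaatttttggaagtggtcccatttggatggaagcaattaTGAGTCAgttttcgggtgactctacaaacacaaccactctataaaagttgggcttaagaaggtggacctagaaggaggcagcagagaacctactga
Igfbp2: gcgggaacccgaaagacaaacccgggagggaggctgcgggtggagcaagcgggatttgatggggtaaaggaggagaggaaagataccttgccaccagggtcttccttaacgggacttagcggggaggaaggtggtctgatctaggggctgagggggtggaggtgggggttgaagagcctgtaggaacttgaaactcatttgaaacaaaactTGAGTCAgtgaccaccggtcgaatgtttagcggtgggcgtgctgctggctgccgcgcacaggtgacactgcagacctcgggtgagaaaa
Lif: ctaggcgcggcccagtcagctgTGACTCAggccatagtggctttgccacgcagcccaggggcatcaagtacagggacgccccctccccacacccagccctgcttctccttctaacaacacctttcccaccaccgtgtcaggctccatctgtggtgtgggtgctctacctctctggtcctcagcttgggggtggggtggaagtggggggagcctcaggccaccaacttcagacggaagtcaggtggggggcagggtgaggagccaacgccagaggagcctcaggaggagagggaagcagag
The motif was found in 19.9% of the 296 genes at least 2-fold higher in TLR9agonist_LW that have a window (59 genes), in 8.11% of the 74 lower genes (6 genes), in 6.41% of 6304 measured genes and in 7.81% of all 32851 windows. A gene counted as a match if any of its windows had one, whereas the 7.81% counts single windows. The higher genes include many that other cells also hold, as described above. Among genes above the other classes the motif was in 15.5% of 58 higher genes (9 genes) and 16.0% of 25 lower genes (4 genes). It was in 8.57% of the 712 measured genes of that kind. Whether these shares differ was not tested. A match describes letters in a window and not binding.

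Papillary and dermal papilla genes gave a mixed picture. Of 14 measured papillary markers 4 were at least 2-fold higher and 1, Tnn, lower, with a list median of 0.70. Pdpn, podoplanin, was at 163 and 276 CPM (1.01, past the fold in 6 of 11 alternatives), and Prdm1 had a log2 ratio of 1.28 (1.05 to 1.52). Fabp5, at 611 and 1782 CPM, and Ereg were the others, and keratinocytes held Fabp5 at 15437 CPM in TLR9agonist_LW. Tnn had a log2 ratio of −1.62 (−1.70 to −1.55), and 59.9% and 34.9% of thinned members were positive. In the deep gate 5 of 12 measured papillary markers were higher and 1 lower, with a median of 0.50. Of 17 measured dermal papilla and condensate genes 1, Rspo4, was higher (7.77 and 21.3 CPM, 1.70) and 2 were lower. Ptn, pleiotrophin, a heparin-binding growth factor, was at 1165 and 418 CPM (−1.23), and Enpp2, autotaxin, at 40.4 and 11.97 CPM (−1.50). Vcan, Twist1, Twist2, Fgf7 and Tbx18 stayed within 2-fold.

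In WT_LW 1 member held 166 of the 169 UMIs of Wif1, a Wnt inhibitor of the dermal papilla, and also 31 UMIs of Alpl, 16 each of Hhip and Rspo2, 15 of Notum, 11 of Lef1 and 10 of Alx4. This cell had 29487 UMIs, 110 of Crabp1, 0 of Prss35 and 1 of Grem1, and was not a predicted doublet. No other member of either library held 3 or more of these 7 genes, which were picked after their values were seen. For TLR9agonist_LW the count was 0 of 1390, which allows a share of up to 0.216%. At least 1 of the 7 genes was detected in 20 members of WT_LW (6.73%) and 28 of TLR9agonist_LW (2.01%). The same WT_LW cell held 47.5% of the Ptch1 UMIs and 41.3% of the Enpp2 UMIs of its library, and the log2 ratio of Enpp2 was −0.87 after thinning, under the fold.

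The counts of higher Wnt, BMP and retinoid genes stand beside 4.93% over all genes. Of 15 measured Wnt genes 3 were at least 2-fold higher and 0 lower, with a median of 0.40. Lgr5 was at 19.0 and 69.6 CPM (2.12, 1.82 to 2.43), Rspo4 is given above, and Dkk2, a Wnt inhibitor, was at 16.3 and 32.8 CPM (1.26), with endothelial cells at 62.1 and 31.2 CPM. Lgr5 was higher in TLR9agonist_LW in cells led by each gene, with 46.1, 99.3 and 57.4 CPM in Crabp1-, Prss35- and Grem1-led cells against 11.1, 28.5 and 6.16 CPM in WT_LW. Wnt5a was at 97.4 and 163 CPM, a log2 ratio of 0.99, just inside the fold. Of 17 BMP and activin genes 3 were higher and 0 lower (median 0.21). These were Smoc2, a matricellular protein that binds BMP signalling components, at 109.6 and 237 CPM (1.36), Smad7 at 63.7 and 132 CPM and Id3 at 153 and 258 CPM. Id3 was just past the fold (1.01) and stayed past it in 3 of 11 alternatives, with 0.73 after thinning. Smad7 and Id3 are intracellular genes that endothelial cells also hold. On the retinoid list of 10 genes, Rbp4 (88.0 and 199 CPM, 1.43) and Cyp26b1 (147 and 256 CPM, 1.06) were higher and 0 lower. None of 6 measured hedgehog genes passed the fold.

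Of 27 measured TGF-beta and contractile genes 1 was higher and 1 lower, with a median of 0.04, beside 4.93% and 1.24% over all genes. Acta2, smooth muscle actin, the marker of myofibroblasts, had 172 CPM in WT_LW against 40.5 CPM in TLR9agonist_LW (−1.84, −1.98 to −1.69), and 24.5% and 9.06% of thinned members were positive. In the deep gate Acta2 was at 49.4 and 56.7 CPM, and in endothelial cells at 91.3 and 71.8 CPM. Tpm1 was at 636 and 306 CPM (−0.81), Myl9 at 166 and 81.7 CPM (−0.77), and Actg2, another smooth muscle actin, at 26.8 and 6.995 CPM (−1.69). Ctgf, a matricellular gene induced by TGF-beta and by YAP, was the higher gene, at 76.2 and 185 CPM (1.53), with endothelial cells at 276 and 203 CPM. Ankrd1, also a YAP target, was at 5.05 and 43.1 CPM (3.34, 2.78 to 3.97) and under 1 CPM in leukocytes, endothelial cells and keratinocytes. Postn, periostin, was at 7579 and 6555 CPM, a log2 ratio of 0.04.

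**Figure D5:**
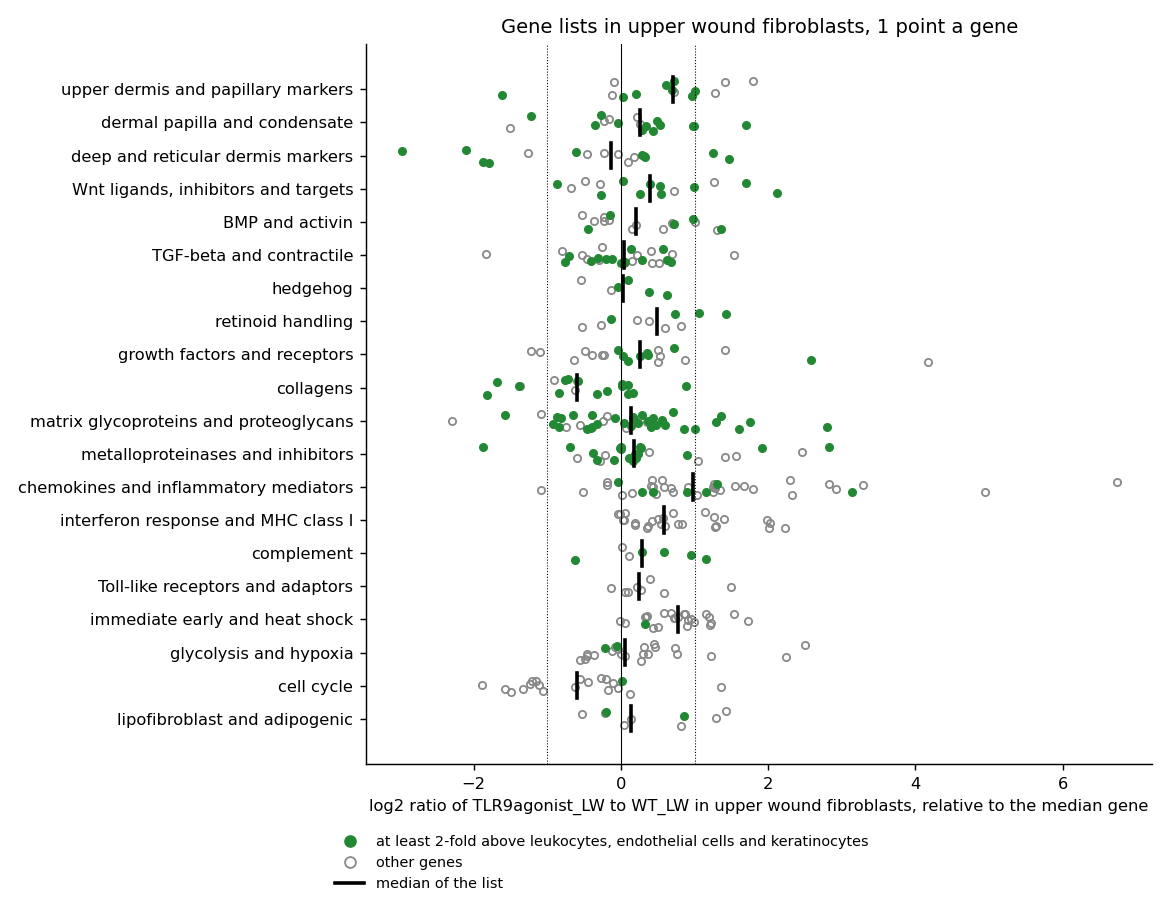
Log2 ratio of TLR9agonist_LW to WT_LW in members, relative to the median gene (0), for the measured genes of 20 lists, 1 point per gene with vertical jitter only to separate points; black bars are list medians and dotted lines mark 2-fold. Filled green points are genes at least 2-fold above leukocytes, endothelial cells and keratinocytes. Of the 20 lists the chemokine list has the highest median, 0.97, and all points of the interferon list are open.

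Of 38 measured chemokines and inflammatory mediators 19 were at least 2-fold higher and 1 lower, with a median of 0.97. The difference was not particular to members, since in the deep gate 24 of 38 were higher and 1 lower, with a median of 1.32. The values below are for members. Ccl2, a monocyte-attracting chemokine, had 841 CPM in WT_LW against 1793 CPM in TLR9agonist_LW (1.35, 1.30 to 1.39), and 55.3% and 83.3% of thinned members were positive. Ccl8 was at 158 and 650.4 CPM (2.29), but leukocytes held 191 and 837 CPM. Ccl7 was at 434 and 681 CPM (0.90), inside the fold, and at least 2-fold above the other classes. Il6 was at 17.3 and 103 CPM, with endothelial cells at 764 CPM in TLR9agonist_LW, and Csf3 at 1.17 and 30.2 CPM, with the highest other class at 776 CPM. Il33, an alarmin, was at 7.38 and 60.6 CPM (3.29), with keratinocytes at 413 CPM. Of the 19 higher genes 3 were also above the other classes, and Ccl2 was not among them. These 3 were Lif, Cxcl5 (91.7 and 172 CPM) and Ccl11, an eosinophil-attracting chemokine (29.9 and 61.8 CPM). Cxcl5 was detected in 6.23% and 11.8% of thinned members, 1 member of WT_LW held 61.0% of its UMIs there, and its log2 ratio of 1.16 became 2.61 after thinning.

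Of 26 measured genes on the interferon and MHC class I list 9 were at least 2-fold higher and 0 lower, with a median of 0.59. Isg15 was at 34.6 and 118 CPM (2.03), Ifi27l2a at 59.3 and 201 CPM (2.02) and Ifit3 at 3.69 and 14.5 CPM (2.23). B2m and H2-D1 were at 1058 and 882 CPM and at 431 and 353 CPM, close to the median gene. None of the 26 genes was 2-fold above the other classes, where Isg15 reached 296 CPM. On this list the deep gate had 12 of 26 higher and 0 lower, with a median of 0.92. Tlr9, the receptor of the agonist, had 0 UMIs in members of WT_LW, which allows up to 0.583 CPM, and 1 in TLR9agonist_LW. Of 8 measured Toll-like receptor and adaptor genes 1, Tlr2, was higher (8.16 and 19.2 CPM), below leukocytes at 56.4 CPM. Of 7 complement genes 1 was higher, the C1 inhibitor Serping1, at 184 and 343 CPM (1.15).

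Immediate early and heat shock genes, which respond to tissue dissociation, were at least 2-fold higher in 6 of 25 cases and lower in 0, with a median of 0.78. Deep fibroblasts had 12 of 25 higher and 0 lower, with a median of 0.86. Hspa1b was at 1144 and 3181 CPM in members (1.73), and at 982 and 3203 CPM in leukocytes. Fos and Jun were at 914 and 758 CPM and at 1951 and 1699 CPM, close to the median gene. Of 23 glycolysis and hypoxia genes 3 were higher, Adm, Egln3 and Hk2, each below another class, and the median was 0.05. Of 9 genes of lipid-rich fibroblasts 2 were higher, Cebpa and Cebpb, and the median was 0.14.

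Of 20 measured cell cycle genes 9 were at least 2-fold lower and 1 higher, with a median of −0.59. Cenpf was at 51.1 and 11.6 CPM (−1.89), Ube2c at 79.1 and 22.2 CPM (−1.58), and Top2a, detected in 8.56% and 3.13% of thinned members, at 59.5 and 21.2 CPM. Replication genes were nearer the median, with Mcm6 at −0.62 and Pcna at 0.12. After thinning, the log2 ratio of Cenpf was −1.41, that of Ube2c −0.96 and that of Top2a −0.44. Ube2c and Top2a were then under the fold, and the interval of Top2a ran from −0.99 to 0.13. The higher gene was Cdkn1a, the cyclin-dependent kinase inhibitor p21, at 71.7 and 154 CPM (1.35), below leukocytes or keratinocytes in both libraries. Cdkn2a, the locus of p16 and p19Arf, was at 26.0 and 97.1 CPM (2.15, 1.90 to 2.42), in 8.56% and 27.5% of thinned members, and at most 4.86 CPM in the other classes.

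Of 16 measured deep and reticular markers 2 were at least 2-fold higher and 5 lower, with a median of −0.14. Tnxb, tenascin X, had 79.1 CPM in WT_LW against 8.42 CPM in TLR9agonist_LW (−2.98, −3.26 to −2.71), Dlk1 at 44.5 and 8.69 CPM (−2.10), Thbs4 at 50.5 and 11.6 CPM (−1.87), and Igfbp6 and Mest followed. All 5 had negative ratios in the deep gate too, where Tnxb was at 347 and 76.9 CPM (−1.87) and Igfbp6 at 1164 and 337 CPM (−1.49). The 2 higher genes were Dpep1, at 53.1 and 123 CPM (1.46), and Mgp, of whose 116 UMIs in WT_LW 1 member held 52.6%. The log2 ratio of Mgp was 1.24, and 0.12 (−0.33 to 0.60) after thinning. For Dlk1 1 member held 42.4%. Markers of Schwann cells summed to 456 CPM in WT_LW members and 256 CPM in those of TLR9agonist_LW.

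Other genes past the fold and at least 2-fold above the other classes were on no list. Higher were Pianp (9.13 and 59.5 CPM), Penk (22.9 and 99.1 CPM), Osr2, a transcription factor (38.1 and 107.5 CPM), Wisp2, a Wnt-induced matricellular protein (14.96 and 52.3 CPM), and Stc2, Nrn1, Pgm5, Clec11a and Ism1. Lower were 1500015O10Rik (63.5 and 8.31 CPM), which was at 158 and 132 CPM in the deep gate with a log2 ratio of 0.04 there, and Ntn4, AW551984, Gas7 and Lrrn4cl. The log2 ratio of Gas7 was −1.81, and −0.65 (−1.17 to −0.12) after thinning. Whether a ratio differs between the upper and the deep gate was not tested.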

How the data were processed

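Single-cell RNA was measured in 2 libraries, WT_LW and TLR9agonist_LW. The values deposited by the authors are UMI counts (whole numbers, not normalized) in a matrix of genes by cell barcodes. The submitters' processing notes name Cell Ranger (4.0.0 in the file headers), fastp, Seurat and the build mm9. The deposited cells numbered 12800 and 13751.

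The software was scanpy 1.11.5, pandas 2.3.3, scipy 1.17.1 and numpy 2.4.6, run under Python 3.11.15, with figures drawn in matplotlib 3.10.9. Members were chosen by the rule given at the start of the report. UMIs were summed over members and divided by their total (CPM), with exact Poisson 95% intervals for levels, exact conditional intervals for ratios and exact binomial intervals for shares. PCR copies were collapsed by the UMIs, and intervals cover counting error only. Genes needed 200 UMIs over both libraries, and a gene was called at a log2 ratio of 1 from the median gene. A 0 was read as up to 3 counts. Shares of positive cells were taken after thinning to 5000 UMIs, which left 257 and 1247 members and left out 40 and 143. Log2 ratios after thinning used other cells, since the rule was applied to the thinned counts and gave 308 and 1278 members. The leukocytes, endothelial cells and keratinocytes had under 20 Col1a1 and Col1a2 UMIs, the first 2 classes under 20 and keratinocytes at least 50 UMIs of Krt1, Krt5, Krt10 and Krt14, and endothelial cells and keratinocytes no Ptprc UMI. Doublets were scored with Scrublet in scanpy, whose automatic threshold called 0 cells, so the highest scores were called, 9.16% and 10.6% of cells (1048 and 1395), a rate set in proportion to the number of cells. These calls caught 45.5% and 52.2% of simulated doublets.

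The members and gene lists were chosen with earlier results of these data known. Genes to name were taken from the genes of the rule, its markers, the 3 highest and 3 lowest of each list, and the 12 highest and lowest overall and against the deep gate. The rule also took the 5 highest for each leading gene, and not every gene it took is printed. Other genes were chosen after their values were seen. Some genes are not reported here. In the files Ctgf and Cyr61 are the older symbols of Ccn2 and Ccn1. The scripts were tested on simulated counts. Promoter sequences came from RefSeq, and 6304 of 8159 measured genes matched by symbol. Further settings are given at the end.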

Additional observations from a re-analysis of the deposited data

Results flagged for a closer look

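In 3 genes the ratio between the libraries was at least 2-fold in opposite directions in the upper and the deep gate, and with 1 library per group the difference was not tested. Itih5, a hyaluronan-binding protein, had a log2 ratio of 1.07 in upper and −1.08 in deep wound fibroblasts, and stood at 166 and 291 CPM in members. Elovl4, which elongates fatty acids, had 1.93 and −1.01, at 6.80 and 21.8 CPM in members against 436 and 178 CPM in keratinocytes. Krt79, a keratin of the upper hair follicle and sebaceous duct, had 1.12 and −1.20, at 43.3 and 79.1 CPM in members against 1211 and 331 CPM in keratinocytes. The ratio of Krt79 in members was −0.62 with equal weight per cell and −0.31 without members over 1% keratinocyte UMIs, so that it was then negative in both gates. The ratios of Itih5 and Elovl4 were under 2-fold in 2 of 11 alternatives each, with lowest values of 0.81 and 0.69.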

How the results depend on the processing

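With 1 library per group, no difference between the libraries was tested. Depth limits genes with few UMIs, and 1 cell held most of a gene's UMIs in some cases named in the report. No paired analysis was possible because each group has 1 library and no result comes from a test.

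Thinning all cells to 5000 UMIs before applying the rule gave a log2 ratio of 1.68 for the share of members among all cells, with 187 genes higher and 33 lower. Requiring 50 UMIs gave 776 higher and 323 lower. Without the shift to the median gene 259 genes were lower, and 265 with totals that leave out Col1a1, Col1a2, Col3a1 and mitochondrial genes. Over genes above the other cell classes, an alternative chosen after seeing the data, the counts were 79 and 38, but the filter uses the library where a gene is higher, so these counts do not bear on the comparison. Under the other alternatives the log2 ratio of the share ranged from 1.97 to 2.06 over all cells, and over fibroblasts from 0.44 to 0.59 under every alternative that gave a value. Of 130 named genes past 2-fold, 95 stayed past it under every alternative that gave a value, 112 of 129 after thinning, 117 without the shift, 119 with equal weight per cell and 124 without members over 1% keratinocyte UMIs. The 35 others include Id3, Fbln5, Pdpn, Mgp, Cyp26b1, Rbp4, Serping1, Tlr2, Cxcl5, Enpp2, Gas7, Top2a, Ube2c, Cenpf and Clec3b. Klk7 turned to −0.13 and Krt79 to −0.62 with equal weight per cell, and Krt79 to −0.31 without members over 1% keratinocyte UMIs. The causes were not tested.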
